A study of Mus with 6 samples.

Results

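The subject is a set of 9 mouse genes used as markers of endothelial tip cells and of vessel sprouting: Esm1, Pdgfb, Cxcr4, Mcam, Igfbp3, Fscn1, Cd34, Angptl2 and Apln. They were chosen by symbol from the 20893 genes of an expression table, and all 9 were found there and passed the expression filter, which kept 10806 genes with an FPKM (fragments per kilobase and per sequenced library, a level scaled to transcript length and depth) of at least 1 in at least 3 libraries. The libraries came from cardiac microvascular endothelial cells sorted from mouse hearts on magnetic beads, with CD31 present and CD45 absent. 3 libraries came from Ccl28 knockout (KO) mice and 3 from wild-type (WT) mice, numbered 2, 3 and 4 in each genotype, and all 6 were made after the left coronary artery had been ligated, a surgical model of myocardial infarction. The titles name Ccl28-KO for all 3 KO libraries, whereas the genotype field of KO replicates 3 and 4 reads Ccl29-KO and Ccl30-KO, and the titles were followed. The sources used here give no age, sex, strain, kind of Ccl28 allele or time after ligation. They do not say whether each library is a different animal, and p-values then measure the spread between these samples alone, which may be technical.

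When a vessel sprouts, the endothelial cell at the front becomes the tip cell, which extends filopodia towards vascular endothelial growth factor (VEGF), while the stalk cells behind it divide and form the lumen. Notch signalling from the tip cell keeps its neighbours in the stalk state. The set covers several parts of that programme: secreted signals (Pdgfb, Apln, Angptl2), secreted matrix and binding proteins (Esm1, Igfbp3), surface receptors and adhesion molecules (Cxcr4, Mcam, Cd34) and an actin-bundling protein of filopodia (Fscn1). Several of these genes are also read outside endothelium, such as Mcam in pericytes and smooth muscle, Cxcr4 in leukocytes, and Cd34 and Angptl2 in fibroblasts. In bulk RNA, fewer cells of a type and less RNA per cell cannot be told apart.

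The libraries held 36004457 to 37780513 reads assigned to genes in KO and 39104282 to 40500067 in WT. Ccl28 had 0 reads in each of the 3 KO libraries, against 16, 11 and 24 reads in WT replicates 2, 3 and 4. Pecam1, which encodes CD31, had 560.5 to 647.7 FPKM in KO and 673.2 to 743.9 FPKM in WT, and Ptprc, which encodes CD45, had 1.01 to 1.41 FPKM in KO and 0.871 to 1.71 FPKM in WT. Expression followed length, meaning the length that FPKM was scaled to, differently in the 2 genotypes. These lengths were derived from FPKM and reads and need not be those of a single transcript. The slope on log2 length of a library's log2 level, taken as its difference from the gene's mean over the 6 libraries, lay between -0.155 and -0.091 in KO and between 0.101 and 0.135 in WT. Genotype and this length trend cannot be told apart, so each marker is also given with the trend removed from every library.

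In KO against WT, which asks how endothelial transcripts of the infarcted heart differ without Ccl28, 5 of the 9 markers fell and 0 of them rose (limma, adjusted p under 0.05). Angptl2, Esm1, Igfbp3, Mcam and Pdgfb fell, to between 0.581 and 0.839 of their WT means. Apln, Cxcr4, Fscn1 and Cd34 did not pass. The background of the comparison was high: limma called 25.8% of all tested genes lower, 18.3% higher and 44.2% in either direction. The share of markers called lower was 55.6%, and the median log2 fold change of the 9 was -0.39, against -0.03 over all tested genes. The FPKM ranges of the groups did not overlap for 4 markers, all lower in KO. Among all tested genes 31.9% were so separated with KO lower, and 54.7% in either direction. With the length trend removed, 3 markers (Angptl2, Esm1 and Igfbp3) fell, beside 9.62% of all tested genes called lower and 19.0% called in either direction. Of the 4 markers that had not passed, Apln then stood at -0.45 (adjusted p = 0.181), Cxcr4 at -0.11 (adjusted p = 0.497), Fscn1 at -0.11 (adjusted p = 0.345) and Cd34 at -0.03 (adjusted p = 0.803). Angptl2, Esm1, Igfbp3 and Mcam, 4 of the 9, were lower in the authors' deposited table at q under 0.05, beside 15.7% of its genes lower and 29.3% in either direction. Each log2 fold change sets KO over WT for log2(FPKM + 1), a scale that shrinks differences of weakly expressed genes. The p-values are limma's, adjusted by Benjamini and Hochberg's method over all tested genes.

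**Figure D1:**
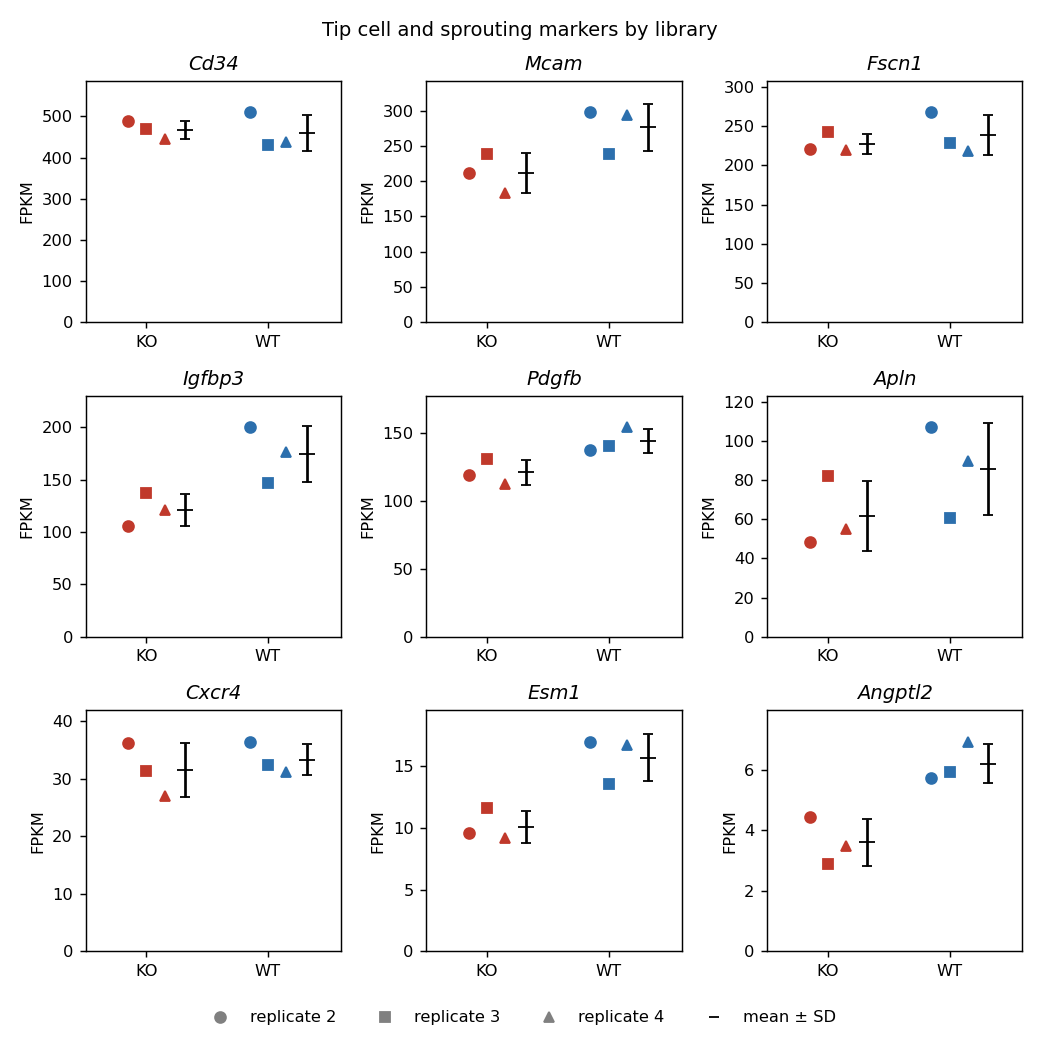
FPKM of the 9 markers in each KO library (left, red) and WT library (right, blue), with mean and SD as black bars (n = 3 each) and the vertical axis starting at 0. The KO libraries of Esm1, Igfbp3, Pdgfb and Angptl2 lie below every WT library, and those of Apln, from 48.4 to 82.2 FPKM, overlap with WT.

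Among the secreted signals, Pdgfb encodes the B chain of platelet-derived growth factor, with which sprouting endothelium recruits pericytes through their receptor PDGFR-beta. The gene (ID 18591) spans chromosome 15 from 79995865 to 80024614 (GRCm38, the build also called mm10). Pdgfb had 119.6, 131.4 and 112.7 FPKM in KO replicates 2, 3 and 4, against 137.9, 140.9 and 154.7 FPKM in WT replicates 2, 3 and 4. Every KO library lay below every WT library, but the gap between the closest libraries was small. Its log2 fold change was -0.25 (SE 0.08, adjusted p = 0.0284), the smallest of the 5 that fell. Pdgfb also had the greatest derived length of the 9 markers, 5088 nt, and removal of the length trend left it at -0.05 (adjusted p = 0.665). Pdgfb also missed the threshold with median-ratio scaling (adjusted p = 0.0681), with all genes tested and no filter on level (adjusted p = 0.0756), and when KO replicate 2 (adjusted p = 0.0782), KO replicate 4 (adjusted p = 0.0992) or WT replicate 4 (adjusted p = 0.124) was left out. In the authors' deposited table Pdgfb had a log2 fold change of -0.19 with q = 0.0709.

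Apln encodes apelin, a secreted peptide of tip cells that acts on the receptor APJ, the product of Aplnr. Apln (ID 30878) spans positions 48025146 to 48034853 of chromosome X. Apln had 48.4, 82.2 and 54.9 FPKM in KO replicates 2, 3 and 4, against 107.2, 60.7 and 89.9 FPKM in WT replicates 2, 3 and 4. KO replicate 3 was above WT replicate 3, so the groups overlapped. The mean was 61.8 ± 17.9 FPKM in KO and 85.9 ± 23.5 FPKM in WT (SD, n = 3 each). The log2 fold change was -0.47 with a 95% confidence interval from -0.96 to 0.02 (adjusted p = 0.11). The spread between replicates, a coefficient of variation of 29.0% in KO and 27.4% in WT, was the widest of the 9 markers, while counting error was at most 1.32% with 5764 to 13671 reads per library. Without KO replicate 3 the log2 fold change was -0.69 (adjusted p = 0.0185), and without WT replicate 3 it was -0.70 (adjusted p = 0.0222). Those were the only 2 of 15 alternative settings in which Apln passed. Leaving out each library in turn gave log2 fold changes from -0.70 to -0.29, with adjusted p up to 0.32. The authors' deposited table gave Apln a log2 fold change of -0.40 with q = 0.399.

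Angptl2, an angiopoietin-like secreted glycoprotein that binds integrin alpha5 beta1, was the least abundant marker. Its fall was the largest of the 9 as deposited, though not with the length trend removed, where Esm1 fell more. Angptl2 (ID 26360) spans positions 33215951 to 33247725 of chromosome 2. Angptl2 had 4.44, 2.88 and 3.48 FPKM in KO replicates 2, 3 and 4, against 5.73, 5.94 and 6.93 FPKM in WT replicates 2, 3 and 4. All KO libraries were below all WT libraries. Its log2 fold change was -0.66 (SE 0.13, adjusted p = 0.00345), and it was -0.60 (adjusted p = 0.0149) with the length trend removed. Angptl2 rested on 377 to 963 reads per library, a counting error of at most 5.15%. It lies wholly within the span of Ralgps1, which had a mean of 0.412 FPKM, and the sources used here do not state whether counting used strand. The authors' deposited table gave a log2 fold change of -0.72 with q = 0.000104.

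Of the secreted matrix and binding proteins, Esm1 encodes endocan, a proteoglycan induced by VEGF and one of the most used tip cell markers. Esm1 (ID 71690) spans positions 113209659 to 113218104 of chromosome 13, inside the long noncoding RNA gene Gm41069. Esm1 had 9.59, 11.6 and 9.17 FPKM in KO replicates 2, 3 and 4, against 17.0, 13.6 and 16.7 FPKM in WT replicates 2, 3 and 4. The highest KO library and the lowest WT library both carried the number 3, and the groups did not overlap. The log2 fold change was -0.59 (SE 0.11, adjusted p = 0.00274), the smallest adjusted p of the 9 markers. Esm1 had the smallest derived length, 2103 nt, and its value was larger in size after removal of the length trend, at -0.73 (adjusted p = 0.00473). Esm1 was called lower in limma under each of 15 alternative settings, with adjusted p from 0.0011 to 0.025, and so was Angptl2, with adjusted p from 0.000969 to 0.0317. In the authors' deposited table Esm1 had a log2 fold change of -0.57 with q = 0.000166.

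Igfbp3 encodes a secreted binding protein that carries insulin-like growth factors. Igfbp3 (ID 16009) spans positions 7206086 to 7215498 of chromosome 11. Igfbp3 had 105.6, 137.0 and 121.0 FPKM in KO replicates 2, 3 and 4, against 200.4, 147.3 and 177.0 FPKM in WT replicates 2, 3 and 4. The groups did not overlap, with KO replicate 3 and WT replicate 3 nearest to each other. KO over WT, the log2 change was -0.52 (SE 0.12, adjusted p = 0.0078), and -0.41 (adjusted p = 0.0399) with the length trend removed. Of the 15 alternative settings, it missed the threshold in the fit without an expression filter (adjusted p = 0.0597). The authors' deposited table gave Igfbp3 a log2 fold change of -0.46 with q = 0.00014.

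**Figure D2:**
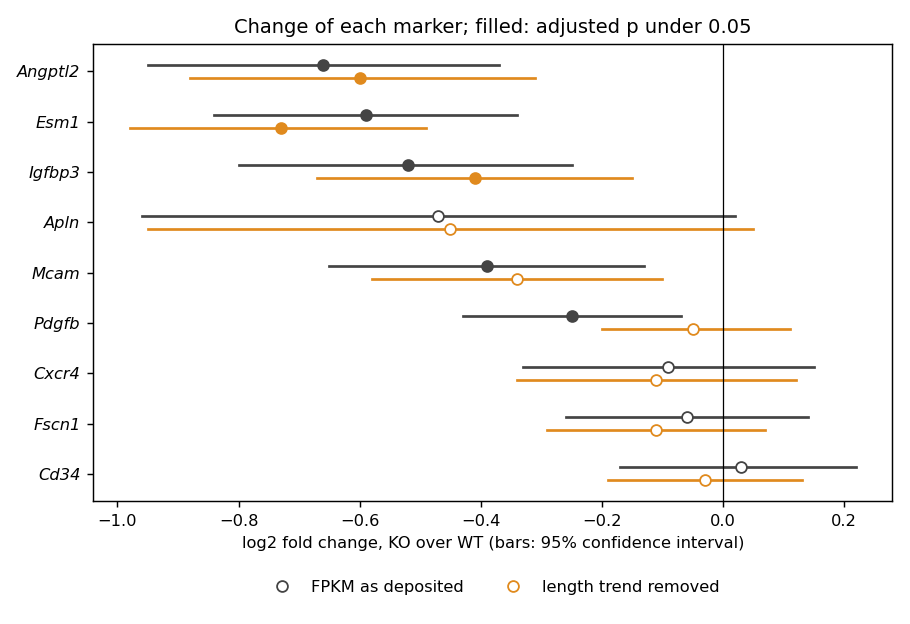
Log2 fold change of each marker, KO over WT, with 95% confidence intervals, from FPKM as deposited (grey) and after removal of each library's length trend (orange), with filled points for an adjusted p under 0.05. Angptl2, Esm1 and Igfbp3 have filled points in both, Mcam and Pdgfb in the first alone, and Apln has the widest interval.

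Among the surface proteins, Mcam encodes CD146, an adhesion molecule of endothelium and mural cells. Mcam (ID 84004) spans positions 44134658 to 44142727 of chromosome 9. Mcam had 211.4, 239.3 and 182.8 FPKM in KO replicates 2, 3 and 4, against 297.6, 238.1 and 294.0 FPKM in WT replicates 2, 3 and 4. KO replicate 3 and WT replicate 3 were nearly equal, with the KO library slightly the higher, and the groups overlapped there. The log2 fold change was -0.39 (SE 0.12, adjusted p = 0.0221). Mcam missed the threshold when KO replicate 2 (adjusted p = 0.051), KO replicate 4 (adjusted p = 0.0824), WT replicate 2 (adjusted p = 0.0636) or WT replicate 4 (adjusted p = 0.0801) was left out. It also missed it with no filter on level (adjusted p = 0.107) and after removal of the length trend (-0.34, adjusted p = 0.0525). The authors' deposited table gave Mcam a log2 fold change of -0.32 with q = 0.00771.

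Cxcr4 encodes the receptor of the chemokine CXCL12 and is read in tip cells and in leukocytes. Cxcr4 (ID 12767) spans positions 128588199 to 128592299 of chromosome 1. Cxcr4 had 36.2, 31.3 and 26.9 FPKM in KO replicates 2, 3 and 4, against 36.4, 32.4 and 31.1 FPKM in WT replicates 2, 3 and 4. The KO and WT libraries were interleaved and only KO replicate 4 lay below all WT libraries. On the log2 scale the change was -0.09 with a 95% confidence interval from -0.33 to 0.15 (adjusted p = 0.537), and it was 0.02 without KO replicate 4. A Cxcr4 difference of the size seen for Esm1 or Angptl2 therefore lay outside its interval. The authors' deposited table gave q = 0.916 for Cxcr4.

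Cd34, a sialomucin of progenitor cells and vascular endothelium that is carried on tip cell filopodia, was the most abundant of the 9 markers. Cd34 (ID 12490) spans positions 194938821 to 194961292 of chromosome 1, where it overlaps the long noncoding RNA gene Gm16897, which had a mean of 0.721 FPKM. Cd34 had 487.9, 469.4 and 444.2 FPKM in KO replicates 2, 3 and 4, against 509.7, 430.3 and 437.9 FPKM in WT replicates 2, 3 and 4. The highest and the lowest library were both WT. The log2 fold change was 0.03 with a 95% confidence interval from -0.17 to 0.22 (adjusted p = 0.817), and q was 0.467 for Cd34 in the authors' deposited table. Under quantile normalization Cd34 was at -0.32 (adjusted p = 0.00703).

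Fscn1 encodes fascin, which bundles actin filaments in filopodia. Fscn1 (ID 14086) spans positions 142960355 to 142973189 of chromosome 5. Fscn1 had 221.2, 242.8 and 219.4 FPKM in KO replicates 2, 3 and 4, against 267.7, 229.3 and 219.0 FPKM in WT replicates 2, 3 and 4. WT replicate 2 was the highest library and the other 5 lay between 219.0 and 242.8 FPKM. Its log2 fold change was -0.06 with a 95% confidence interval from -0.26 to 0.14 (adjusted p = 0.591), and q was 0.974 for Fscn1 in the authors' deposited table. Under quantile normalization Fscn1 was at -0.27 (adjusted p = 0.0244).

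The levels of the 9 markers, compared per length as mean FPKM, spanned from 3.6 to 467.2 in KO and from 6.2 to 459.3 in WT. In WT the order was Cd34, Mcam, Fscn1, Igfbp3, Pdgfb, Apln, Cxcr4, Esm1 and Angptl2. Neighbours in that order were separated in every library of both genotypes except for Mcam and Fscn1 and for Igfbp3 and Pdgfb. In those pairs the ranges overlapped in WT, and the KO means stood in the other order, with Mcam at 0.927 times Fscn1 in KO and 1.16 times in WT, and Igfbp3 at 0.999 times Pdgfb in KO and 1.21 times in WT. Cd34 was at 2.21 times Mcam in KO and 1.66 times in WT. These ratios compare levels and were not tested.

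Within a genotype the order of the libraries was often shared. KO replicate 3 was the highest KO library for 6 of the 9 markers and for 31.2% of all tested genes, and KO replicate 4 the lowest for 6 markers and 38.6% of tested genes. In WT, replicate 2 was the highest library for 7 markers and 46.7% of tested genes. WT replicate 3 was the lowest for 5 markers, a share near its 52.8% among all tested genes. Esm1, Mcam, Igfbp3, Apln and Cd34 were the 5 with WT replicate 3 lowest, and of these Esm1, Mcam, Igfbp3 and Apln had KO replicate 3 highest. On a log2 scale centred on each gene's mean over the 6 libraries, Apln stood at -0.55, 0.21 and -0.37 in KO replicates 2, 3 and 4, against 0.60, -0.23 and 0.34 in WT replicates 2, 3 and 4. Angptl2 had another pattern, with KO replicate 3 lowest, at -0.70, and WT replicate 4 highest, at 0.57. Of the same-numbered libraries, those with number 3 differed least for Apln, Mcam, Esm1, Igfbp3 and Pdgfb and most for Angptl2 and Cd34. Over the 6 libraries the markers' pairwise correlations ran from -0.21 (Pdgfb with Cd34) to 0.96 (Esm1 with Mcam and with Igfbp3), and they share genotype and library.

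**Figure D3:**
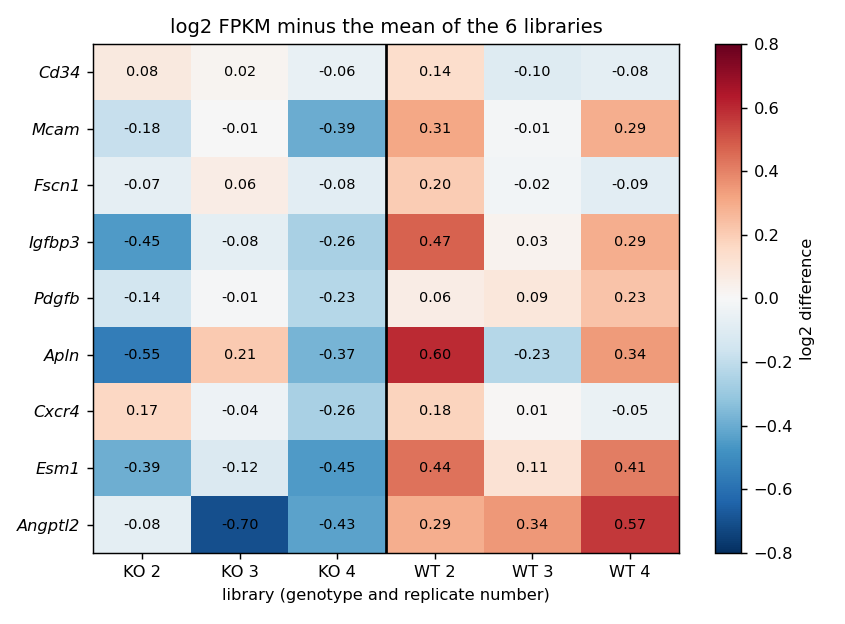
Log2 FPKM of each marker minus its mean over the 6 libraries, with KO libraries left of the line and WT libraries right of it, red above and blue below the mean. For Apln, KO replicate 3 stands at 0.21 and WT replicate 3 at -0.23, and for Angptl2 KO replicate 3 stands at -0.70.

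Without KO replicate 3 or without WT replicate 3, 6 markers fell in limma, the additional one being Apln, beside 23.0% and 24.8% of all tested genes called lower in those fits. Without KO replicate 2, KO replicate 4 or WT replicate 4, 3 markers fell, beside 22.3%, 20.0% and 18.3% of all tested genes in the same order. Without WT replicate 2, 4 markers fell, beside 22.0% of all tested genes. When every library was scaled to its summed level of 8 endothelial markers (Pecam1, Cdh5, Tie1, Emcn, Erg, Egfl7, Eng and Cldn5), 4 fell: Angptl2 (log2 fold change -0.62), Esm1 (-0.55), Igfbp3 (-0.48) and Mcam (-0.34), while Pdgfb had -0.21 (adjusted p = 0.0779). Under that scaling 21.8% of all tested genes were called lower.

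Markers of other cell types moved with genotype in several lists. The counts below stand beside 25.8% of all tested genes called lower and 18.3% called higher. With the length trend removed these shares were 9.62% and 9.38%, and quantile normalization called 21.8% lower. The summed FPKM of the 8 endothelial markers overlapped, at 3696 to 3982 in KO and 3868 to 3975 in WT, but its genes went both ways: Cdh5 and Erg fell, Egfl7 and Emcn rose, and 4 did not pass. With the length trend removed 1 of these 8 fell and 0 rose, and under quantile normalization 5 fell and 0 rose. The sum of 10 mural cell markers overlapped as well, at 361.6 to 567.8 FPKM in KO and 476.0 to 622.9 FPKM in WT, but 7 of the 10 fell and 0 rose. The sum of 8 fibroblast markers was 13.33 to 16.45 FPKM in KO and 27.35 to 31.94 FPKM in WT, and all 6 that were tested fell, or 5 with the length trend removed. The sum of 13 leukocyte markers was 255.4 to 383.7 FPKM in KO and 107.4 to 238.9 FPKM in WT, and 8 of 12 tested rose, or 4 with the length trend removed. Lyz2, at 142.8 to 228.3 FPKM in KO and 58.1 to 149.2 FPKM in WT, made up most of that sum. The sum of 4 platelet markers was 75.36 to 100.6 FPKM in KO and 27.37 to 50.17 FPKM in WT, and 3 of the 4 rose, or 2 with the length trend removed. Lymphatic markers (5 genes) summed to 36.19 to 50.88 FPKM in KO and 63.81 to 77.95 FPKM in WT. Of 4 tested, 3 fell, and 3 with the length trend removed. Flt4, also among the other tip cell genes, made up most of that sum, at 28.2 to 34.6 FPKM in KO and 44.0 to 49.8 FPKM in WT. The 2 endocardial markers summed to 12.05 to 14.54 FPKM in KO and 25.94 to 27.24 FPKM in WT. Both fell, also with the length trend removed. Cgnl1, at 11.6 to 13.9 FPKM in KO and 24.1 to 25.5 FPKM in WT, made up most of the endocardial sum. Cardiomyocyte markers (6 genes) overlapped, at 97.39 to 112.4 FPKM in KO and 78.36 to 117.8 FPKM in WT, and 1 of 4 tested fell, or 0 with the length trend removed. No marker in these lists was at 0 in all 6 libraries. The part of these cell types in the values of Mcam, Cd34, Cxcr4 and Angptl2 was not tested.

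Partner genes were examined through a list of 16 ligands, receptors and binding partners of the markers, of which 15 were in the table and 11 were tested. Of the 11, 6 fell and 0 rose (limma), with a median log2 fold change of -0.40. The share called lower was 54.5%, against 25.8% of all tested genes. Pdgfrb, the PDGF receptor of mural cells and the partner of Pdgfb, had 9.70, 5.85 and 6.39 FPKM in KO replicates 2, 3 and 4, against 13.4, 17.1 and 18.9 FPKM in WT replicates 2, 3 and 4. No KO library reached a WT library, and its log2 fold change was -1.09 (adjusted p = 0.00113), or -0.82 (adjusted p = 0.0145) with the length trend removed. Pdgfrb is also among the 10 mural cell markers, of which 7 fell. Ackr3, the atypical second receptor of CXCL12, had 39.2, 46.2 and 40.4 FPKM in KO against 62.0, 59.8 and 61.9 FPKM in WT in the same replicate order. Ackr3 fell (log2 fold change -0.54, adjusted p = 0.000808) with no overlap, and its value was -0.64 with the length trend removed, while Cxcl12 itself averaged 339.9 ± 41.5 FPKM in KO and 389.7 ± 27.6 FPKM in WT (SD, n = 3 each, adjusted p = 0.128).

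Aplnr, the apelin receptor gene, had 276.9, 211.9 and 221.9 FPKM in KO replicates 2, 3 and 4, against 220.1, 213.7 and 187.5 FPKM in WT replicates 2, 3 and 4. The groups overlapped, and the log2 fold change was 0.19 with a 95% confidence interval from -0.06 to 0.43 (adjusted p = 0.186), so neither ligand nor receptor of this pair passed. For Igfbp3, the growth factor gene Igf2 averaged 41.3 ± 1.41 FPKM in KO and 47.6 ± 4.12 FPKM in WT (adjusted p = 0.0664). Igf1r, an insulin-like growth factor receptor gene, fell to 1.71 ± 0.324 FPKM in KO, against 4.13 ± 0.464 FPKM in WT (log2 fold change -0.92, adjusted p = 0.000592). The integrin genes of the ANGPTL2 receptor, Itga5 and Itgb1, fell to 0.756 and 0.674 of their WT means. Pirb, a mouse immune receptor of ANGPTL2, had 2.35 ± 0.557 FPKM in KO and 1.63 ± 1.24 FPKM in WT and did not pass (adjusted p = 0.21). Lama4, the laminin alpha4 chain that MCAM binds, fell to 58.8 ± 8.37 FPKM in KO, against 98.7 ± 10.6 FPKM in WT (log2 fold change -0.74, adjusted p = 0.00107). Itgb2, a chain of the integrin LFA-1 that binds human endocan, averaged 6.11 FPKM in KO and 4.76 FPKM in WT (adjusted p = 0.338). With the length trend removed 5 of the 11 partners fell, the call of Itga5 being lost (adjusted p = 0.0572), beside 9.62% of all tested genes.

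**Figure D4:**
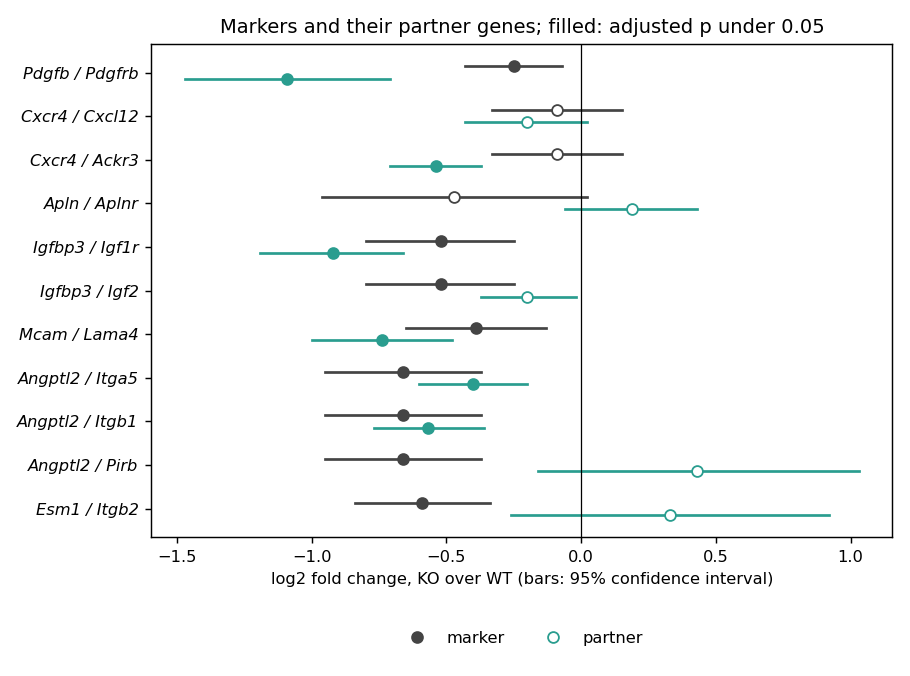
Log2 fold change, KO over WT, with 95% confidence intervals, of 7 markers (grey) and all 11 tested genes of their ligands, receptors or binding partners (green), with filled points for an adjusted p under 0.05. Pdgfrb, at -1.09, lies below Pdgfb, at -0.25, and the open points of Aplnr, Itgb2 and Pirb lie above 0, at 0.19, 0.33 and 0.43.

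Other tip cell genes, 30 that are not among the 9 markers, were examined next: 21 fell, 4 rose and 5 did not pass. Their median log2 fold change was -0.55. Of all tested genes 25.8% were called lower and 18.3% higher. The genes named here have the smallest p of the list, and all of them fell. Perlecan (Hspg2), a heparan sulphate proteoglycan of the basement membrane, fell to 0.466 of its WT mean, with 100.9 ± 11.2 FPKM in KO and 216.6 ± 9.2 FPKM in WT (adjusted p = 0.000217). The neuropilin genes Nrp2 and Nrp1, co-receptors of VEGF, and Unc5b, a netrin receptor gene, fell to 0.491, 0.506 and 0.567 of their WT means. These genes have derived lengths of 5868 to 14403 nt. With the length trend removed, Hspg2 went from a log2 fold change of -1.1 to -0.62 and Nrp2 from -1.01 to -0.66. Nrp1 went from -0.97 to -0.57 and Unc5b from -0.81 to -0.56, and all kept their calls. After removal of the length trend 17 of the 30 fell and 1 rose, with a median of -0.48. Beside them 9.62% of all tested genes were called lower and 9.38% higher. The 30 genes and the 9 markers were listed with earlier results of these data known, and their difference was not tested.

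Of 14 stalk and quiescence genes tested, 4 fell, 4 rose and 6 did not pass, with a median log2 fold change of -0.15. The 28.6% called lower was near the 25.8% of all tested genes called lower, beside 18.3% called higher. Under quantile normalization 6 fell and 2 rose, with 21.8% of all tested genes called lower. Jag1, a Notch ligand gene, fell to 5.08 ± 0.658 FPKM in KO, against 9.38 ± 0.461 FPKM in WT (adjusted p = 0.000592), and Flt1, the VEGF trap receptor gene, fell to 0.626 of its WT mean. Id1 and Id3, targets of bone morphogenetic protein signalling with short derived lengths, rose to 1.5 and 1.48 times their WT means. With the length trend removed 2 of the 14 fell and 0 rose, beside 9.62% of all tested genes called lower and 9.38% called higher. Flt1 then went from a log2 fold change of -0.67 to -0.20 (adjusted p = 0.0936) and lost its call, while Jag1 stood at -0.34 (adjusted p = 0.0228). The log2 fold changes of Id1 and Id3 were 0.24 (adjusted p = 0.141) and 0.16 (adjusted p = 0.158).

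**Figure D5:**
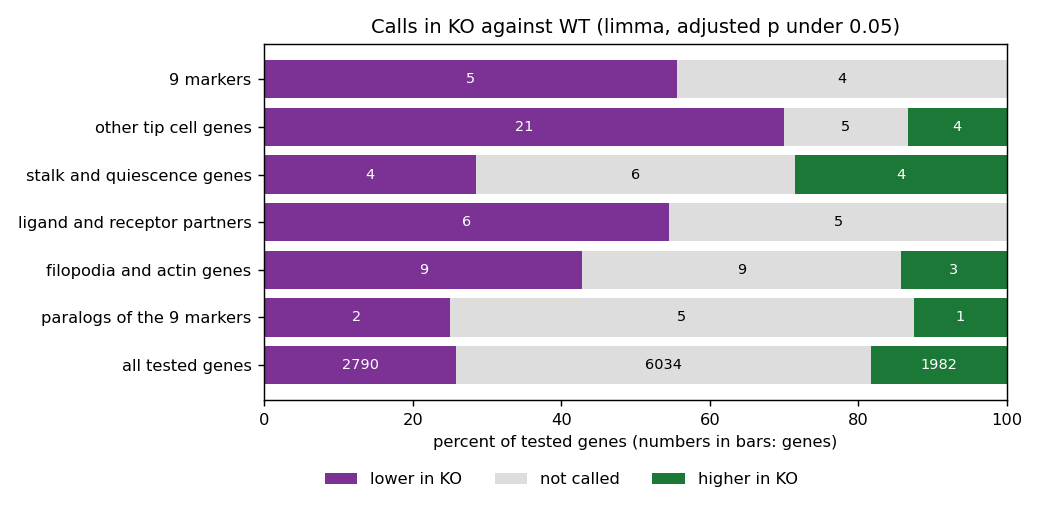
Share of tested genes called lower in KO (purple), not called (grey) and called higher in KO (green) by limma, for the 9 markers, 5 related gene lists and all tested genes, with the number of genes in each bar. The markers show 5 lower and 0 higher, the other tip cell genes 21 lower and 4 higher, and all tested genes 2790 lower and 1982 higher.

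Around Fscn1, 21 further genes of filopodia and actin were tested, of which 9 fell, 3 rose and 9 did not pass, with a median log2 fold change of -0.21. The share called lower was 42.9%, against 25.8% of all tested genes. Myo10, the motor that travels to filopodial tips, fell to 0.551 of its WT mean (13.7 ± 0.982 FPKM in KO, 24.9 ± 1.65 FPKM in WT, adjusted p = 0.000411). Its log2 fold change was -0.81 as deposited and -0.27 (adjusted p = 0.0268) with the length trend removed. The formin genes Daam1 and Diaph2 and the membrane-bending protein gene Srgap2 fell to 0.537, 0.544 and 0.668 of their WT means. These 4 have derived lengths of 7436 to 19808 nt, and with the length trend removed Diaph2 (adjusted p = 0.0711) and Srgap2 (adjusted p = 0.0764) did not pass. With the trend removed 4 of the 21 genes fell and 3 rose, beside 9.62% of all tested genes called lower and 9.38% called higher.

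Paralogs of the markers were examined to set each marker beside its own family. Of 18 listed, 17 were in the table and 8 were tested, of which 2 fell, 1 rose and 5 did not pass (median log2 fold change -0.26). The 25.0% called lower was near the 25.8% of all tested genes called lower, beside 18.3% called higher. With the length trend removed 2 of the 8 fell and 0 rose, beside 9.62% of all tested genes called lower and 9.38% called higher. Igfbp5 fell to 22.9 ± 4.59 FPKM in KO, against 63.6 ± 9.85 FPKM in WT (log2 fold change -1.44, adjusted p = 0.000364). Its value was -1.19 (adjusted p = 0.00232) with the length trend removed. Igfbp7, the most abundant family member, had 2059.6 ± 123 FPKM in KO and 1680.5 ± 105 FPKM in WT. It rose by 0.29 on the log2 scale (adjusted p = 0.0282), but the value was -0.12 under quantile normalization and -0.04 after removal of the length trend. Podxl, the sialomucin gene related to Cd34, fell to 312.4 ± 39.5 FPKM in KO, against 490.5 ± 19.8 FPKM in WT (adjusted p = 0.000876), while Cd34 did not pass. The log2 fold change of Podxl was -0.66 as deposited and -0.43 (adjusted p = 0.00929) with the length trend removed. Pdgfd did not pass, with 20.3 ± 2.88 FPKM in KO and 24.2 ± 1.73 FPKM in WT (adjusted p = 0.0682).

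In the authors' deposited annotation, 6 of the 9 markers (Esm1, Pdgfb, Igfbp3, Cd34, Angptl2 and Apln) carried the GO term extracellular region, which 5.57% of all listed genes carried. Esm1, Mcam and Apln carried the term angiogenesis (1.2% of all genes), and Pdgfb, Cxcr4 and Fscn1 the term cell migration (1.24%). Of the 5 markers that fell, 4 were among the 6 with the extracellular region term, and so were Cd34 and Apln, which did not pass. Mcam, the exception among those that fell, carried the term extracellular space, as did Pdgfb, Igfbp3, Angptl2 and Apln (5.05% of all genes). The annotation was used as a description only.

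For each marker, the 2 genes with the highest Pearson correlation of log2(FPKM + 1) over the 6 libraries were noted as a description, since genotype, library and length trend are shared by all of them. They were Kdm5c and Tlnrd1 for Esm1, Rad50 and Sugp2 for Pdgfb, Wdr3 and P4ha1 for Mcam, Ppp4r1 and Rnd1 for Igfbp3, and Ttf1 and Cant1 for Angptl2. For the markers that did not pass they were Dis3 and Plau for Apln, Tarsl2 and Zfp651 for Cxcr4, Stk32c and Ptk7 for Fscn1, and Ydjc and Osbpl9 for Cd34. The correlations ran from 0.974 (Ptk7 with Fscn1) to 0.999 (Kdm5c with Esm1, Wdr3 with Mcam). Plau, the urokinase gene, had 25.4 ± 5.53 FPKM in KO and 32.3 ± 7.33 FPKM in WT and, like Apln, did not pass (adjusted p = 0.16).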

How the data were processed

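Sample titles gave each library's genotype and number. The authors deposited an FPKM table with 1 column per library. Their second table, per the file headers, holds group means of normalized counts (a signal), each gene's p-value, q-value, log2 fold change and linear fold (a ratio), with DESeq2 in a column name. Per the submitters' processing notes, which assign no roles, the tools named include featureCounts 1.6.2, HISAT2 2.1.0 and fastp 0.19.3. The notes also list GATK 4.0.11.0, Cufflinks, DESeq2 1.22.1 and StringTie 1.3.4d, and the build mm10. Of 20893 gene IDs, 20334 matched RefSeq's GRCm38.p6 table, which gave the coordinates.

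Reads per library and the lengths to which FPKM is scaled were derived from FPKM and the authors' deposited group means (within a tolerance of 0.05, 100.0% of values at or under 1000 reads came out whole) for all but 3207 genes. Depth bounds counting error only. In R 4.3.3, limma 3.58.1 with a mean-variance trend and genotype as the sole term tested log2(FPKM + 1), calling genes at an adjusted p under 0.05. The length trend was a lowess of each library's deviation from the gene mean on log2 length. Alternatives were a pseudocount of 0.1, no filter, FPKM of at least 5, quantile and median-ratio scaling, the replicate number as a block, removal of the length trend, limma-voom on derived reads, each library left out, and, chosen after seeing the data, scaling to endothelial markers. Scripts were tested on simulated data. Python 3.11.15, pandas 2.3.3, numpy 2.4.6, scipy 1.17.1 and matplotlib 3.10.9 were used.

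The markers and lists were chosen with earlier results of these data known. Named genes were the 9 markers, up to 4 tested genes per other list with the smallest p, measured partners, the 2 genes most alike each marker, and, outside that rule, Pecam1 and Ptprc, which encode the proteins of the sort. Genes of the marker lists for cell types are given as counts and sums, except Cdh5, Erg, Egfl7, Emcn, Lyz2, Flt4 and Cgnl1, named after their values were seen.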

Additional observations from a re-analysis of the deposited data

How the results depend on the processing

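Angptl2 and Esm1 fell under each of the 15 alternatives and Igfbp3 under 14. Of the 9 markers, 3 fell with the replicate block, 3 with the length trend removed and 2 without an expression filter, against 5 in the comparison reported. Of all tested genes, 20.4%, 9.62% and 10.9% were called lower in these fits in the same order, against 25.8% in the comparison reported. Leaving out 1 library gave 3 to 6 markers, beside 18.3% to 24.8% of all tested genes. Same-numbered libraries had correlations of -0.349 to -0.195 between their deviations, and 0 of 6 correlated best with their own number. The deviations were taken from the mean of each genotype's 3 libraries, which ties these correlations to each other. They cannot decide whether the replicate numbers pair the libraries. With the block Mcam had an adjusted p of 0.0558 and Pdgfb of 0.0779. The block took the calls over all genes to 2207 lower and 1542 higher, removal of the length trend to 1039 lower and 1014 higher, and median-ratio scaling to 2485 lower and 2511 higher.

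Calls over all tested genes moved with the setting, and calls in the lists stand beside them. Of 10806 tested genes, 2790 were called lower and 1982 higher in the comparison reported. Quantile scaling called 2359 lower and 2207 higher, and the block called 1542 higher. After removal of the length trend 1039 were called lower and 1014 higher. Without a filter 1362 of 20893 genes were called higher. Leaving out 1 library gave 1411 to 1998 called higher. A difference between lists and all tested genes was not tested. Of the other tip cell genes, 1 rose without a filter, 1 after removal of the length trend, 1 under quantile normalization, and 2 with the block (2 to 4 on leaving out 1 library). Stalk and quiescence genes had 6 lower and 2 higher with quantile normalization, and 2 lower and 0 higher with the length trend removed. Filopodia and actin genes had 0 higher with quantile normalization and 4 lower with the length trend removed (1 to 3 higher on leaving out 1 library), partners 0 to 1 higher on leaving out 1 library, and paralogs 0 higher without a filter, after removal of the length trend, with the block and under quantile normalization (0 to 1 on leaving out 1 library).

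Log2 fold changes with the opposite sign were these. With quantile normalization: Cd34 -0.32, Aplnr -0.01, Igfbp7 -0.12, Osbpl9 -0.04, Ptk7 0.0021, Stk32c 0.03, Tarsl2 0.0043 and Zfp651 0.08. With the length trend removed: Cd34 -0.03, Cant1 0.05, Cxcl12 0.12, Igf2 0.05, Igfbp7 -0.04, Kdm5c 0.01, Ppp4r1 0.40, Ptk7 0.07, Sugp2 0.08, Ydjc -0.17 and Zfp651 0.26. On leaving out 1 library, Cd34 ranged from -0.02 to 0.10 (-0.0041 without KO replicate 2 and -0.0045 without WT replicate 4), Osbpl9 from -0.03 to 0.07, Cxcr4 from -0.19 to 0.02, Fscn1 from -0.12 to 0.02, Stk32c from -0.18 to 0.09, Tarsl2 from -0.18 to 0.0028 and Zfp651 from -0.09 to 0.02. The causes were not tested. Counting error of the marker values was at most 5.15%, and for each marker it was below that marker's coefficient of variation in both genotypes.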
